A study of Mus musculus with 6 samples.

Results

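The genes described here encode the receptor Lgr4 and the parts of the Wnt receptor complex that work with it, as measured in endothelial cells (ECs) sorted from mouse lungs with breast cancer metastases. The 10 genes were Lgr4, Lgr5, Rspo1, Rspo3, Znrf3, Rnf43, Lrp5, Lrp6, Fzd4 and Axin2, out of 18193 genes with a probe set of their own on the arrays. Every probe set that the platform annotation assigned to 1 of these symbols alone was included, which gave 18 of the 45037 probe sets tested. Lgr4 was chosen by its rise in clodronate-liposome relative to PBS-liposome arrays, and its second, disagreeing probe set was included with it. The values of both Lgr4 probe sets are therefore a description of why the gene was chosen, and nothing is rested on them. The other 9 genes were listed for their place in the same receptor complex.

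R-spondins are secreted ligands that bind the receptors Lgr4, Lgr5 and Lgr6. The bound complex takes the membrane ubiquitin ligases Znrf3 and Rnf43 off the cell surface, and these ligases otherwise remove Frizzled and Lrp receptors, so that R-spondins raise the sensitivity of a cell to Wnt. Wnt bound to a Frizzled receptor and to Lrp5 or Lrp6 stabilizes β-catenin, whose targets include Axin2, a scaffold that in turn promotes β-catenin breakdown. In blood vessels the same route is best known from the retina and brain, where Fzd4 with Lrp5 serves vessel growth and the barrier, and Rspo3 is known as an angiogenic R-spondin.

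ECs came from NSG mice, a strain that lacks lymphocytes and natural killer cells, which were 6 to 8 weeks old when MDA-MB-231-LM2 cells, a lung-metastatic human breast cancer line, were injected into the tail vein. All 6 samples came from lungs with metastases, and no tumor-free group was part of the comparison. Mice received 100 µl of liposomes intravenously on days 14, 16 and 18, loaded either with PBS or with clodronate, a drug that kills phagocytes such as macrophages, and lungs were taken on day 20, labelled as 3 weeks. The comparison asks how macrophage depletion changes the expression of these genes in ECs. Cells were sorted as CD31-positive after exclusion of leukocytes, epithelial cells, fibroblasts, mural cells and tumor cells, and each group held 3 arrays. The labels call the arrays of a group biological replicates, and the number of mice behind each array is not given in the sources used here.

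Values are log2 signals of probe sets, so that a difference of 1 is a 2-fold change in signal. Signal depends on the probes as well as on the RNA, and levels are compared between arrays for the same probe set. The share of probe sets that are dimmer only places a signal on the array and does not rank genes by expression. A probe set was counted as past the threshold at an adjusted p under 0.05 over all 45037 probe sets. In RNA of a sorted population, a lower signal from fewer cells of a subtype and from less RNA per cell cannot be told apart.

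Promoter windows are shown for Lgr4, the gene on which the choice of genes rests, and for Axin2, the β-catenin target that reads out this receptor complex, so that their sequences can be seen beside the signals. Each window runs from 250 bases before to 50 bases after the transcription start site and comes from RefSeq (assembly GRCm38.p6, plus strand, written 5′ to 3′). The Lgr4 window lies at chr2:109917397-109917696 and the Axin2 window at chr11:108920099-108920398. Capitals mark CCAAT, or ATTGG where it lies on the opposite strand, a common promoter element bound by NF-Y.
Lgr4: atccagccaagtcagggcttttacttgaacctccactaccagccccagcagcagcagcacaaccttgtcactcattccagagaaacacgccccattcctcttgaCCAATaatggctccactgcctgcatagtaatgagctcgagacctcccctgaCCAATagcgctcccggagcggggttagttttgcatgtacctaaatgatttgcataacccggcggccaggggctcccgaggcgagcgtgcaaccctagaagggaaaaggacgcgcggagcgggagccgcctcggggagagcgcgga
Axin2: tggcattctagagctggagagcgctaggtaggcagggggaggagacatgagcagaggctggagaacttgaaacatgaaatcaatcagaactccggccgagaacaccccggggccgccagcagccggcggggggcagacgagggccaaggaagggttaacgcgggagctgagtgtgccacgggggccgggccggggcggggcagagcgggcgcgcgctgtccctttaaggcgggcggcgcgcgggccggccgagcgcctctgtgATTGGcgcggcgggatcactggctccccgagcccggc
The Lgr4 window held 2 CCAAT matches and the Axin2 window 1, and 37.4% of the 32851 windows of this length in the table held at least 1. The element was searched for after the sequences were in view. The β-catenin partners TCF and LEF were searched for as CTTTGNN on both strands, where each N had to be an adenine or a thymine. This motif was in neither window, nor in the windows of Rspo1, Rnf43 and Fzd4, and 16.9% of all windows held it. The absence of these letters says nothing about binding elsewhere. In all, 5 of the 10 genes had an entry, with 6 windows, and Lgr5, Rspo3, Znrf3, Lrp5 and Lrp6 had none.

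Markers of ECs were among the brightest probe sets, and markers of other cell types were also detected. The 8 endothelial markers averaged 13.05 to 13.14 on PBS-liposome arrays and 13.04 to 13.23 on clodronate-liposome arrays, and each was brighter than at least 94.0% of all probe sets. The 6 macrophage markers averaged 8.23 to 8.61 and 8.12 to 8.37, with 5 lower and 1 higher after clodronate liposomes and Itgam near the dim end of the arrays. The higher one, Mertk, had means of 12.08 and 12.15 with 94.7% of probe sets dimmer, and it raised these averages. The other 5 had group means of 6.59 to 8.70. Their differences ran from -0.65 for Csf1r, whose groups did not overlap, to -0.075 for Cd68. The 5 leukocyte markers averaged 7.97 to 8.38 and 7.60 to 7.89, with all 5 lower. The 7 fibroblast and mural markers averaged 9.77 to 9.86 and 9.39 to 9.75, with all 7 lower on average, Cspg4 by only -0.0039. The 5 mesothelial markers averaged 7.33 to 7.66 and 7.14 to 8.94, the last on clodronate-liposome replicate 3, with all 5 higher on average. The 5 lymphatic endothelial markers averaged 10.66 to 10.88 and 10.77 to 10.93, with 2 higher and 3 lower. The 6 epithelial markers averaged 8.41 to 8.74 and 8.34 to 8.45, with 2 higher and 4 lower. Within this average, Sftpc and Scgb1a1 varied widely between arrays. Sftpc had 11.38, 10.14 and 11.35 on PBS-liposome arrays and 8.49, 12.78 and 11.47 on clodronate-liposome arrays. Scgb1a1 had 10.37, 10.06 and 8.76 against 11.28, 7.53 and 7.89. In none of these lists was a marker past the threshold. The 18 hybridization controls, which are added to every sample at fixed amounts, averaged 12.11, 12.24 and 12.12 on PBS-liposome arrays and 11.91, 12.20 and 11.94 on clodronate-liposome arrays, so that clodronate-liposome replicates 1 and 3 stood below all others. The same replicates had the highest signal of 18S ribosomal RNA, with 13.01 and 13.00 against 12.33 to 12.63 on the other 4 arrays.

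Lgr4, an R-spondin receptor known for its broad expression across tissues, was read by a pair of probe sets that did not move together. The brighter of them, 1433891_at, had signals of 8.22, 8.42 and 8.01 on PBS-liposome replicates 1, 2 and 3 and of 9.32, 9.04 and 9.08 on clodronate-liposome replicates 1, 2 and 3. All 3 clodronate-liposome arrays lay above all 3 PBS-liposome arrays. The group means were 8.22 ± 0.21 and 9.15 ± 0.15 (SD, n = 3), a difference of 0.93 (SE 0.14), or 1.91-fold. Of all probe sets, 0.440% had a larger difference in either direction, and 58.0% had a lower mean signal than this one.

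The dimmer probe set of Lgr4, 1453765_at, had signals of 6.26, 6.18 and 6.42 on PBS-liposome arrays and of 6.26, 6.22 and 6.26 on clodronate-liposome arrays. Its groups overlapped, with PBS-liposome replicate 3 highest and the clodronate-liposome arrays nearly level. The group means were 6.29 ± 0.12 and 6.25 ± 0.022 (SD, n = 3), a difference of -0.04 (SE 0.10). Only 6.81% of probe sets had a lower mean signal, which places it among the dimmest on the arrays. Averaged over both probe sets on each array, the difference of Lgr4 was 0.45. Which part of the Lgr4 transcript each probe set reads was not analysed here.

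**Figure D1:**
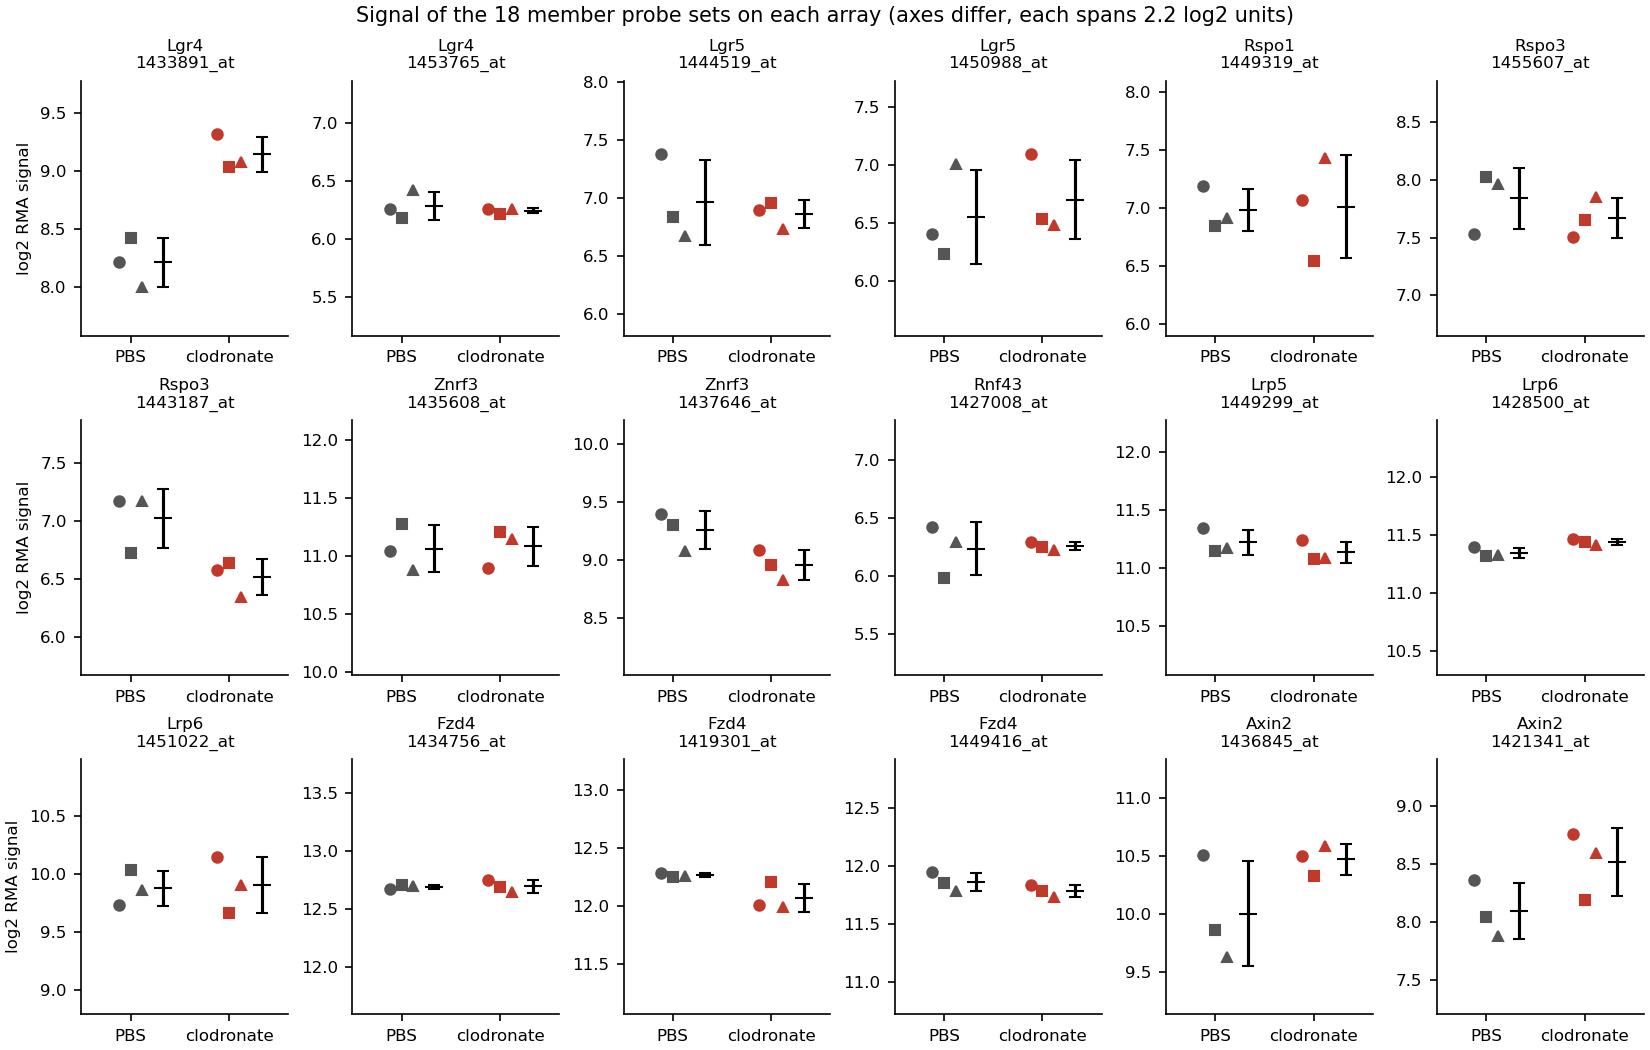
Log2 RMA signal of each of the 18 probe sets on the 6 arrays, with PBS-liposome arrays in grey and clodronate-liposome arrays in red; circles, squares and triangles are replicates 1, 2 and 3, and the bars give mean ± SD of 3 arrays. All panels span the same number of log2 units. The groups stand apart for Lgr4 1433891_at (8.22 against 9.15 on average) and, by smaller steps, for Rspo3 1443187_at, Lrp6 1428500_at and Fzd4 1419301_at.

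With the clodronate-liposome group reduced to replicate 2, the difference of Lgr4 1433891_at was 0.83, and with the hybridization controls in the model it was 0.91, neither past the threshold and both settings chosen after seeing the data. In the former, the lone treated array was assumed to vary like the PBS-liposome arrays. Leaving out each of the 6 arrays in turn gave 0.83 to 1.04. The macrophage, leukocyte and fibroblast and mural markers were mostly lower after clodronate liposomes, as counted above, and their part in the result was not tested.

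The 5 genes whose signal followed Lgr4 1433891_at most closely were Svip, Gpnmb, Cgnl1, Galc and Oip5os1, by Pearson r over the 6 arrays among 3917 genes with at least median signal and a range of at least 0.5. Their r values were 0.990, 0.988, 0.986, 0.983 and 0.983. The 6 arrays form 2 groups, so that r mainly follows the group difference, and it is given as a description. Gpnmb, a transmembrane glycoprotein, had signals of 9.84, 9.79 and 9.53 on PBS-liposome arrays and of 10.91, 10.62 and 10.73 on clodronate-liposome arrays. Svip, which encodes a small partner of the ATPase VCP, differed by 0.54, Cgnl1, a junction protein, by 0.48, the lysosomal enzyme gene Galc by 0.42 and the noncoding RNA Oip5os1 by 0.38.

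The genes most like the dimmer Lgr4 probe set were Pold3, Psrc1, Angptl4, Ifitm5 and Nectin2, with r of 0.988, 0.986, 0.977, 0.953 and 0.942. PBS-liposome replicate 3 was the highest array for each of them, as it was for Lgr4 1453765_at. Angptl4, a secreted inhibitor of lipoprotein lipase, had 9.18, 8.70 and 9.72 on PBS-liposome arrays and 9.12, 9.04 and 9.10 on clodronate-liposome arrays.

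Lgr5, the R-spondin receptor known as a stem cell marker, was not past the threshold on either of its probe sets. Probe set 1444519_at had 7.38, 6.83 and 6.67 on PBS-liposome arrays and 6.90, 6.95 and 6.73 on clodronate-liposome arrays, a difference of -0.10 (95% confidence interval -0.52 to 0.32, adjusted p = 0.901). Probe set 1450988_at had 6.40, 6.23 and 7.01 against 7.09, 6.53 and 6.48, a difference of 0.15 (-0.39 to 0.69, adjusted p = 0.883). The groups overlapped on both, and the high array was PBS-liposome replicate 1 on the former and clodronate-liposome replicate 1 on the latter. Of all probe sets, 22.4% and 14.7% had a lower mean signal.

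No probe set of the R-spondin genes was past the threshold. Rspo3 was read by 2 probe sets, both with a lower mean after clodronate liposomes. The dimmer, 1443187_at, had 7.17, 6.73 and 7.17 on PBS-liposome arrays and 6.57, 6.64 and 6.34 on clodronate-liposome arrays. All 3 clodronate-liposome arrays were below all PBS-liposome arrays, by a narrow gap between clodronate-liposome replicate 2 and PBS-liposome replicate 2. The difference of -0.50 (SE 0.15, -0.85 to -0.16) did not pass the threshold (adjusted p = 0.259). The brighter, 1455607_at, had 7.53, 8.02 and 7.96 against 7.50, 7.65 and 7.85, and its difference was -0.17 (-0.53 to 0.19, adjusted p = 0.778). Its groups overlapped because PBS-liposome replicate 1 was almost as low as the lowest clodronate-liposome array. All 7 fibroblast and mural markers also had lower means after clodronate liposomes, from -0.52 for Dcn to only -0.0039 for Cspg4. Their part in these values was not tested.

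Rspo1, the founding member of the ligand family, had 7.19, 6.85 and 6.92 on PBS-liposome arrays and 7.07, 6.54 and 7.43 on clodronate-liposome arrays, by probe set 1449319_at. Its difference was 0.03 (-0.47 to 0.53, adjusted p = 0.982). The highest array was clodronate-liposome replicate 3, on which the mesothelial markers averaged 8.94 against 7.14 to 7.66 elsewhere, and the lowest was clodronate-liposome replicate 2, on which they were lowest. The part of mesothelial RNA in the Rspo1 signal was not tested. Without clodronate-liposome replicate 3 the difference of Rspo1 was -0.18.

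Znrf3 and Rnf43, the ligases that R-spondins keep from the receptors and that are themselves β-catenin targets, were not past the threshold on any probe set. Znrf3 1435608_at had 11.04, 11.28 and 10.88 on PBS-liposome arrays and 10.89, 11.21 and 11.15 on clodronate-liposome arrays, and its difference was 0.02 (-0.30 to 0.34, adjusted p = 0.981). Znrf3 1437646_at had 9.40, 9.30 and 9.08 against 9.09, 8.96 and 8.83, a difference of -0.30 (-0.58 to -0.02, adjusted p = 0.420). On the latter, the groups overlapped through PBS-liposome replicate 3 and clodronate-liposome replicate 1 alone, while on the former the arrays of both groups were mixed. Rnf43 1427008_at, with only 6.39% of probe sets dimmer, had 6.42, 5.99 and 6.30 against 6.30, 6.25 and 6.23, a difference of 0.02 (-0.27 to 0.31, adjusted p = 0.977). Its clodronate-liposome arrays lay inside the range of the PBS-liposome arrays.

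The co-receptors Lrp5 and Lrp6 were not past the threshold on any probe set. Lrp5 1449299_at had 11.34, 11.15 and 11.17 on PBS-liposome arrays and 11.24, 11.07 and 11.09 on clodronate-liposome arrays, a difference of -0.09 (-0.33 to 0.15, adjusted p = 0.845), and the groups overlapped. Lrp6 1428500_at had 11.40, 11.32 and 11.33 against 11.47, 11.45 and 11.41. Its groups did not overlap, yet the step was small, with a difference of 0.10 (-0.11 to 0.30, adjusted p = 0.780). Lrp6 1451022_at had 9.74, 10.04 and 9.87 against 10.15, 9.67 and 9.90, a difference of 0.03 (-0.31 to 0.36, adjusted p = 0.975), with clodronate-liposome arrays both above and below all PBS-liposome arrays.

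Fzd4, the Frizzled receptor with the best known roles in ECs, was not past the threshold on any of its 3 probe sets, whose signals had 92.5% to 97.9% of all probe sets below them. Probe set 1434756_at had 12.68, 12.71 and 12.70 on PBS-liposome arrays and 12.76, 12.69 and 12.65 on clodronate-liposome arrays, a difference of 0.00 (-0.20 to 0.21, adjusted p = 0.997). Probe set 1449416_at had 11.94, 11.85 and 11.78 against 11.84, 11.78 and 11.73, a difference of -0.08 (-0.29 to 0.14, adjusted p = 0.850). On these probe sets the groups overlapped. Probe set 1419301_at had 12.29, 12.25 and 12.26 against 12.01, 12.21 and 11.99, so that every clodronate-liposome array was lower. The difference of -0.20 (-0.43 to 0.03) did not pass the threshold (adjusted p = 0.537). The arrays farthest down were clodronate-liposome replicates 1 and 3, which also stood apart in the control probe sets. With the group reduced to replicate 2 the difference was -0.06. The part of the control signals in this difference was not tested.

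**Figure D2:**
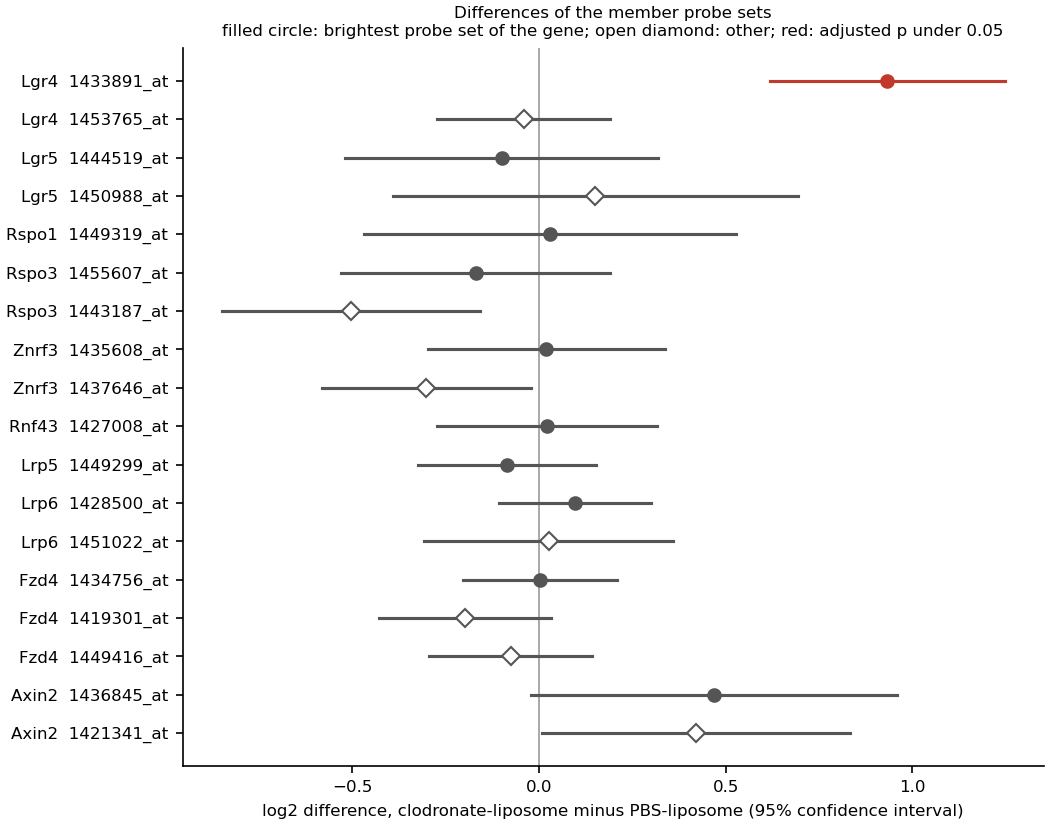
Difference in log2 signal, clodronate-liposome minus PBS-liposome, of each of the 18 probe sets with its 95% confidence interval from the fit over all probe sets (3 arrays per group). Filled circles mark the brightest probe set of a gene and open diamonds the others. Lgr4 1433891_at stands at 0.93 by choice of the gene, Rspo3 1443187_at is lowest at -0.50 and the Axin2 probe sets lie at 0.47 and 0.42.

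Axin2, widely used as a readout of β-catenin activity, had higher mean signals after clodronate liposomes on both of its probe sets, without passing the threshold on either. Probe set 1436845_at had 10.51, 9.87 and 9.63 on PBS-liposome arrays and 10.50, 10.33 and 10.58 on clodronate-liposome arrays. PBS-liposome replicate 1 was as high as the clodronate-liposome arrays and made the groups overlap. The SD was 0.45 among PBS-liposome and 0.13 among clodronate-liposome arrays (n = 3), and the difference was 0.47 (SE 0.21, -0.02 to 0.96, adjusted p = 0.487). Probe set 1421341_at had 8.36, 8.05 and 7.88 against 8.76, 8.19 and 8.60, with means of 8.10 ± 0.24 and 8.52 ± 0.29. Here PBS-liposome replicate 1 exceeded clodronate-liposome replicate 2, and the difference was 0.42 (SE 0.18, 0.01 to 0.83, adjusted p = 0.453).

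Both Axin2 probe sets ordered the PBS-liposome arrays alike, with replicate 1 highest and replicate 3 lowest, and both had clodronate-liposome replicate 2 as the lowest treated array. Without PBS-liposome replicate 1 the difference of 1436845_at was 0.72, and without PBS-liposome replicate 3 it was 0.28. The treated arrays with the higher Axin2 signal were those that stood apart in the control probe sets. With the hybridization controls in the model, the differences of 1436845_at and 1421341_at were 0.33 and 0.19, and with the clodronate-liposome group reduced to replicate 2 they were 0.32 and 0.10. Neither was past the threshold under any of the settings tried. The arrays that stood apart were both treated ones, and the part of the control signals in the Axin2 differences was not tested.

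**Figure D3:**
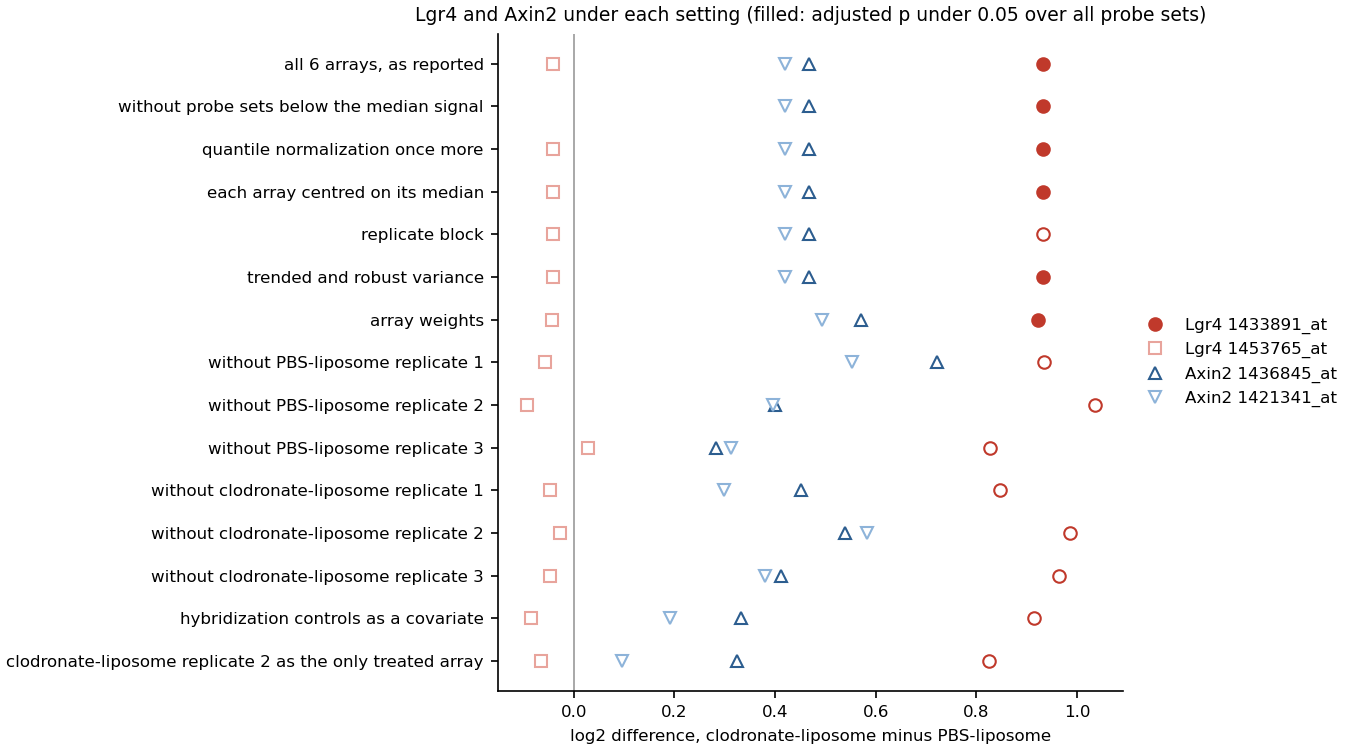
Difference in log2 signal, clodronate-liposome minus PBS-liposome, of the Lgr4 and Axin2 probe sets in the comparison of all 6 arrays and under each other setting; filled symbols have an adjusted p under 0.05 over all probe sets. Lgr4 1433891_at, by which the gene was chosen for its rise, lies between 0.83 and 1.04, which is a description only. Axin2 1421341_at ranges from 0.10 to 0.58. Lgr4 1453765_at has no symbol where dim probe sets were left out.

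Counted together, 1 of the 18 probe sets was past the threshold, the brighter one of Lgr4 by which the gene was chosen, against 0.306% of all probe sets. Nothing is read from that count, which became 0 when any single array was left out. For 4 of the 18, or 22.2%, the 3 arrays of one group lay wholly above those of the other, with 2 higher and 2 lower after clodronate liposomes, against 16.0% of all probe sets. Without the probe sets of Lgr4 this was so for 3 of 16, or 18.8%. An unadjusted p under 0.05 was reached by 4, again 2 in each direction, against 10.8% of all probe sets. Of the 16 probe sets of the 9 genes other than Lgr4, 0 were past the threshold by limma and 3 had an unadjusted p under 0.05. Their differences ran from -0.50 to 0.47 with a median of 0.01, and over all probe sets the median was -0.00. All 16 confidence intervals lay within a 2-fold change of signal in either direction. Some of these probe sets were dim, such as Rnf43 1427008_at with 6.39% of probe sets dimmer, and there the interval does not bound the change in RNA. Smaller differences are not settled by 3 arrays per group.

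The wider Wnt pathway was described with 10 lists that together named 102 genes, of which 100 were measured, each by its brightest probe set. Kremen2 and Tcf7 were not analysed here. Apart from Lgr4, which was chosen by its rise, 99 genes remained. Of these, 0 were higher past the threshold and 1 was lower (Myc), against 0.434% of all genes. For 8 of the 99 all clodronate-liposome arrays lay higher and for 7 all lay lower, together 15.2%, against 16.2% of all genes. An unadjusted p under 0.05 was reached by 5 in each direction, and over all 18193 genes by 826 higher and 998 lower. The median difference of the 99 genes was -0.01, and that of all 18193 genes was -0.00.

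**Figure D4:**
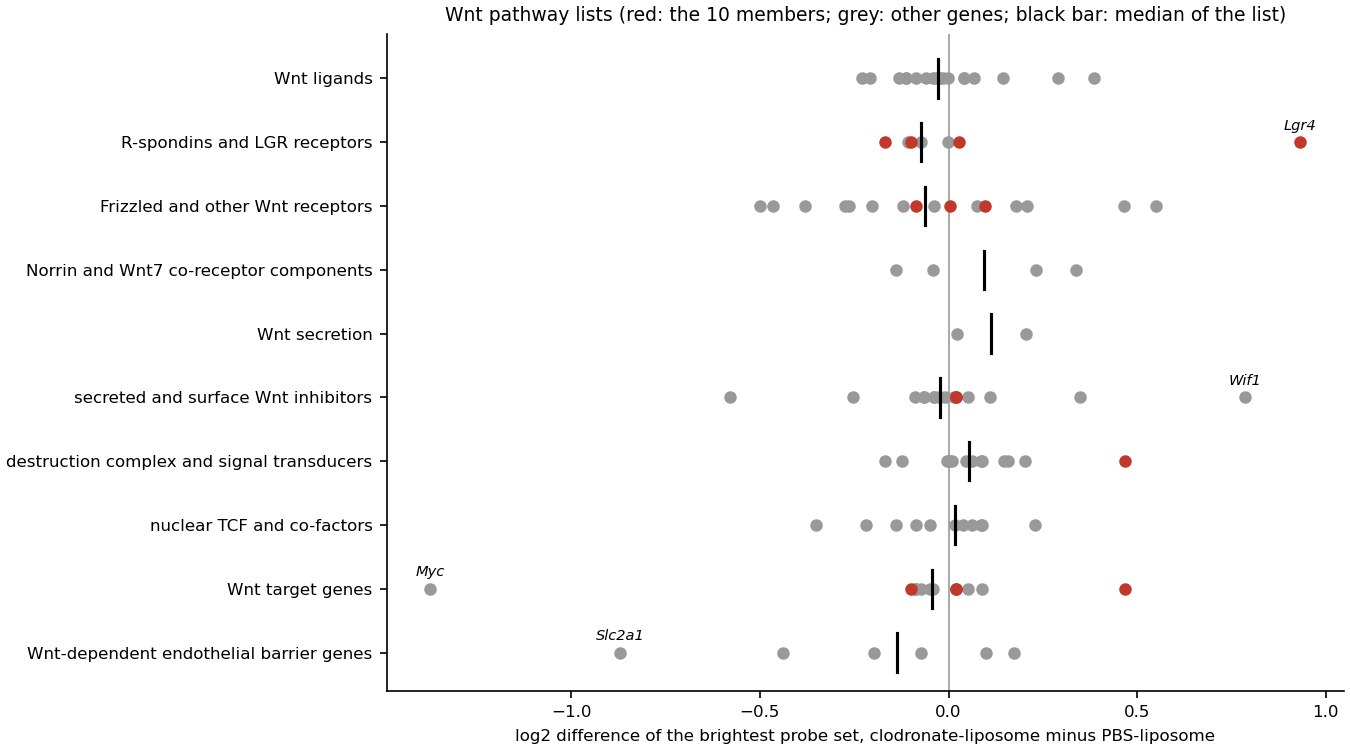
Difference in log2 signal, clodronate-liposome minus PBS-liposome, of the brightest probe set of each gene in the 10 Wnt pathway lists, with the 10 genes described here in red, other genes in grey and the median of each list as a black bar. A gene that belongs to several lists is drawn in each. Medians lie between -0.14 and 0.11, and Lgr4, Wif1, Slc2a1 and Myc are the genes farthest from 0.

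Among ligands and receptors, differences ran in both directions. Of the 7 R-spondin and LGR genes, only Lgr4, which was chosen for its rise, was past the threshold. The remaining ones ran from -0.17 to 0.03. The 19 Wnt ligand genes had 0 past the threshold by limma, against 0.434% of all genes, and a median of -0.03. An unadjusted p under 0.05 was reached by 1 of them, which was higher, where 826 of all 18193 genes were higher at that level. That gene was Wnt16, with a difference of 0.29 (adjusted p = 0.384), while Wnt9a differed by 0.38 and Wnt11 by -0.21. Lgr6, the remaining LGR receptor, differed by -0.11. The 16 Frizzled and other Wnt receptor genes had a median of -0.06, with 0 past the threshold. An unadjusted p under 0.05 was reached by 4 of them, 2 higher and 2 lower, a larger share than over all genes as counted above. For 7 of the 16, or 43.8%, the groups did not overlap, 3 of them higher and 4 lower, against 16.2% of all genes. Ror1, a receptor tyrosine kinase that binds Wnt5a, differed by 0.55 (adjusted p = 0.283), its relative Ror2 by -0.47 (adjusted p = 0.305) and Fzd7 by 0.46 (adjusted p = 0.322). The other probe set of Fzd7, 1450043_at, differed by -0.00. Other probe sets of Ror1 differed by 0.36 (1451014_at) and 0.15 (1429312_s_at), and that of Ror2 by -0.12 (1457128_at). On each of these the groups overlapped. Fzd5, named after its values were seen, was lower on average on both of its probe sets, by -0.50 on 1455604_at (adjusted p = 0.384) and -0.35 on 1422937_at (adjusted p = 0.280).

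Fzd3 was a further receptor gene whose probe sets disagreed, named after its values were seen. Its brightest probe set, 1420087_at, differed by -0.38, while 1434788_at differed by 0.81 (adjusted p = 0.0656) and 1438101_at by 0.73 (adjusted p = 0.238). The remaining 3 probe sets of Fzd3 ran from 0.00 to 0.05. For Norrin itself and the co-receptor parts that serve Norrin and Wnt7 signals in brain vessels, 0 of 4 genes passed the threshold. The share over all genes was 0.434%, and 1 of the 4 had an unadjusted p under 0.05. For 2 of the 4 all clodronate-liposome arrays lay higher, against 16.2% of all genes without overlap. These were Reck, with 0.34 (adjusted p = 0.356), and Tspan12, with 0.23 (adjusted p = 0.483), while Adgra2 differed by -0.14. Wls, which carries Wnt proteins to the cell surface, differed by 0.21 and Porcn, which lipidates them, by 0.02, neither past the threshold.

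Inside the cell and among the inhibitors, the lists also centred near 0. The 17 measured inhibitors had 0 past the threshold by limma, against 0.434% of all genes, and a median of -0.02. An unadjusted p under 0.05 was reached by 1 of them, which was higher, where 826 of all 18193 genes were higher at that level. Wif1, a secreted protein that binds Wnt ligands, had 10.20, 10.81 and 10.37 on PBS-liposome arrays and 11.41, 11.37 and 10.97 on clodronate-liposome arrays. Its groups did not overlap, and the difference was 0.79 (SE 0.18, adjusted p = 0.166). Sfrp2, a secreted Frizzled-like Wnt antagonist, differed by -0.58 (adjusted p = 0.487) and its relative Sfrp1 by -0.25. On dimmer probe sets of the inhibitors, an unadjusted p under 0.05 was reached by Frzb 1416658_at and Znrf3 1437646_at. Frzb 1416658_at differed by 0.57 (adjusted p = 0.175), with groups that did not overlap, and Znrf3 1437646_at by -0.30. The brightest probe set of Frzb, 1448424_at, differed by 0.35, and its groups overlapped. The 14 genes of the β-catenin destruction complex and its transducers had a median of 0.05 and Axin2 as the member with the largest difference, and the 11 measured nuclear factors had a median of 0.02. In the former list Axin1 differed by -0.17 and the kinase gene Csnk1a1 by 0.15. In the latter Tcf7l1 differed by -0.35 and the co-repressor genes Tle4 and Tle3 by 0.23 and -0.22. Dimmer probe sets of Tle3 differed by -0.41 (1449554_at), -0.35 (1419654_at) and -0.15 (1458512_at). Neither list had a gene past the threshold or, by brightest probe set, at an unadjusted p under 0.05. In the former list, dimmer probe sets at that level were Gsk3b 1434439_at (0.57), Axin2 1421341_at (0.42) and Tnks 1459910_at (-0.24). In the latter they were Lef1 1421299_a_at (-0.40), Tcf7l2 1425229_a_at (-0.30) and Tle3 1449554_at and 1419654_at. The brightest probe sets of Gsk3b, Tnks, Lef1 and Tcf7l2 differed by 0.01, 0.06, -0.09 and 0.09.

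Of the 12 measured Wnt target genes, Myc alone passed the threshold, or 8.33% of the list against 0.434% of all genes, and the list median was -0.04. Myc, a transcription factor that drives growth and has many inputs besides Wnt, had 10.99, 10.99 and 11.03 on PBS-liposome arrays and 9.46, 9.87 and 9.55 on clodronate-liposome arrays. It fell by 1.37 on the log2 scale (SE 0.12, adjusted p = 0.0144), and all clodronate-liposome arrays lay below all PBS-liposome arrays. The call was lost when PBS-liposome replicate 1, 2 or 3 or clodronate-liposome replicate 3 was left out, with differences of -1.50 to -1.29 over the 6 arrays left out in turn. The other targets, among them Lgr5, Znrf3, Rnf43 and Axin2, were between -0.10 and 0.47, with Sp5 at 0.09.

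The 6 measured genes known from Wnt-dependent vessel barriers had 0 past the threshold by limma, against 0.434% of all genes, and a median of -0.14. An unadjusted p under 0.05 was reached by 2 of the 6, both lower, where 998 of all 18193 genes were lower at that level. Slc2a1, the glucose transporter of barrier vessels and also a gene responsive to hypoxia, had 10.69, 10.93 and 10.96 on PBS-liposome arrays and 9.90, 10.21 and 9.87 on clodronate-liposome arrays. All clodronate-liposome arrays were lower, and the difference of -0.87 (SE 0.13) just missed the threshold (adjusted p = 0.0528). They were also lower on its other probe sets, without passing the threshold. These were 1426600_at with -0.76 (adjusted p = 0.0567) and 1434773_a_at with -0.65 (adjusted p = 0.139). Foxf2, a transcription factor of vessel and mural development, differed by -0.44 on 1418220_at (adjusted p = 0.391), where the groups overlapped. Its other probe set, 1447562_at, differed by -0.0055. The tight junction gene Cldn5 differed by 0.17.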

How the data were processed

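RNA of sorted lung ECs was measured on Affymetrix mouse whole-genome arrays, 3 per group. The authors deposited log2 signals, computed by robust multiarray averaging (RMA) in Chipster, which corrects background, equalizes the distributions of the arrays and combines the probes of a probe set. These values were used as deposited.

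Of 45101 probe sets, 64 controls of the manufacturer were set aside and 45037 were tested with no filter on low signal. The platform annotation gave 34945 of them 1 gene symbol, 932 several and 9160 none. By gene identifier, 34741 of the first matched a RefSeq gene table, with 0 symbols changed. No probe set named 1 of the 10 genes together with another gene. The probe set with the highest mean stood for a gene in counts.

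Differences, clodronate-liposome minus PBS-liposome, were tested two-sided by empirical Bayes linear models without covariates (limma 3.58.1, R 4.3.3), with Benjamini-Hochberg adjustment over all 45037 probe sets and a threshold of 0.05. Residual degrees of freedom were 4 and prior ones 3.90. The steps were tested on simulated data. The number of arrays limits the precision, and where replicates share a source, p values measure the spread between these arrays alone.

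The genes and lists were chosen with earlier results of these data known. One item of the pathway lists is not reported here. By rule, the text names all 10 genes, list genes past the threshold or among the 3 with the smallest p of a list, and the 5 genes most correlated with each Lgr4 probe set. Fzd3, Fzd5, Frzb, Gsk3b, Tnks, Lef1 and Tcf7l2 were named after their values were seen. Alternatives were a filter on low signal, further normalization, the replicate number as a block, other variance models, array weights, leaving out each array, and another choice of probe set.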

Additional observations from a re-analysis of the deposited data

How the results depend on the processing

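With 3 arrays per group, calls depended on single arrays and on the model. Of all probe sets, 138 were past the threshold. The count was 244 without probe sets below the median signal, 248 with a trended and robust variance, 234 with array weights and 6 to 73 when each array was left out in turn, with 6 without PBS-liposome replicate 2, 15 without PBS-liposome replicate 1, 16 without PBS-liposome replicate 3, 23 without clodronate-liposome replicate 3, 33 without clodronate-liposome replicate 1 and 73 without clodronate-liposome replicate 2. With a replicate block it was 0 by limma, with 5033 at an unadjusted p under 0.05. It was also 0 with the hybridization controls in the model (4710) and when the clodronate-liposome group was reduced to replicate 2 (3964), both settings chosen after seeing the data. The single count among the 18 probe sets, Lgr4 1433891_at, became 0 under the replicate block, the hybridization controls, the single treated array and each array left out, and stayed 1 under the other 5 settings. Its difference ran from 0.83 to 1.04 over the 14 settings. As the gene was chosen for this rise, that range is a description and no support for it. The mean of both Lgr4 probe sets was 0.45 and not past the threshold. The cause was not tested. Whether the replicate numbers mark paired samples is not given in the sources used here and was not settled. After removal of group means, same-numbered arrays correlated at 0.075, 0.070 and 0.036 and differently numbered ones at -0.058 to -0.0065. Each array thus correlated best with its own number, though weakly. Myc kept its direction throughout and lost its call under the replicate block (adjusted p = 0.0507), the hybridization controls and the single treated array. Slc2a1 passed the threshold in 3 settings, without dim probe sets, with a trended and robust variance and with array weights. Among other pathway genes named, a few small differences changed sign. With the hybridization controls Cldn5 gave -0.037, Porcn -0.0073 and Tle3 0.13. With the single treated array Cldn5 gave -0.093, Tcf7l1 0.011 and Tle3 0.31. With array weights Porcn gave -0.061. With arrays left out in turn, Lgr6 ran from -0.22 to 0.045 and Porcn from -0.13 to 0.18.

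Of 245 recomputed differences of the 18 probe sets, 211 kept their direction and their side of the threshold, 9 lost the call, all of Lgr4 1433891_at, and 25 changed sign, all of small differences. With array weights Fzd4 1434756_at gave -0.016. With the hybridization controls Fzd4 1434756_at gave -0.0025, Lgr5 1450988_at -0.067, Lrp6 1451022_at -0.085, Rnf43 -0.061 and Rspo1 -0.30. With the single treated array Fzd4 1434756_at gave -0.0052, Lgr5 1450988_at -0.022, Lrp6 1451022_at -0.21 and Rspo1 -0.44. Means over all probe sets of a gene gave Fzd4 -0.091, Lgr5 0.025 and Znrf3 -0.14. With arrays left out in turn, the ranges that crossed 0 were -0.026 to 0.028 for Fzd4 1434756_at, -0.093 to 0.027 for Lgr4 1453765_at, -0.25 to 0.11 for Lgr5 1444519_at, -0.047 to 0.38 for Lgr5 1450988_at, -0.095 to 0.14 for Lrp6 1451022_at, -0.10 to 0.12 for Rnf43, -0.18 to 0.26 for Rspo1 and -0.075 to 0.12 for Znrf3 1435608_at. Without dim probe sets, Rspo1, Rnf43 and both probe sets of Lgr5 and of Rspo3, and Lgr4 1453765_at, had no value.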
